A study of Mus musculus with 86 samples.

Results

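Wnt4, Lhx1 and Pax8 are 3 genes that mark the first step from nephron progenitor to nephron. They were taken by symbol from a table of 12360 genes in 86 single cells of the mouse kidney, and each has 1 row there. The cells came from wild-type metanephroi, the kidneys that persist to adulthood, of mice of mixed background and both sexes at 12.5 days post coitum (Theiler stage 20). The kidneys were pooled and dissociated with trypsin, and single cells were captured on a Fluidigm C1 instrument, which lyses each cell in its own chamber. The submitters describe the work as a step toward an expression atlas of kidney development cell by cell, and the labels give no cell type. All cells belong to 1 pool and 1 group, so they are 1 sample, and no test between cells is made. The SDs below describe the spread between cells.

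In the developing kidney the ureteric bud, an epithelial tube, signals to the cap of progenitor cells around it. Wnt9b from the bud leads some progenitors to form a pretubular aggregate, which switches on Wnt4, Lhx1 and Pax8 and then becomes the renal vesicle, the first epithelium of the nephron. Wnt4 is a secreted ligand that the aggregate needs in order to become epithelial. Lhx1 is a LIM homeodomain transcription factor that acts in the aggregate and later in nephron patterning, and it is also expressed in the nephric duct lineage that gives rise to the bud. Pax8 is a paired-domain transcription factor that overlaps in function with Pax2. Six2, a homeodomain factor, keeps progenitors undifferentiated, Cited1 is a transcriptional co-regulator of the least committed progenitors, and Mal2 is a membrane protein of epithelial transport that marks bud cells here.

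In the authors' mm9 coordinates, Wnt4 (gene 22417) lies at chr4:136833550-136852694, Lhx1 (gene 16869) at chr11:84332881-84339036 and Pax8 (gene 18510) at chr2:24276080-24331086. The 250 bases before each gene's start are shown because the 3 genes were found in overlapping sets of cells. They are from RefSeq on build GRCm38.p6, another build than that of the files, and all 3 symbols matched. They are given 5′ to 3′ on the gene's strand, with CpG dinucleotides in capitals. The windows are chr4:137277385-137277634 on the plus strand for Wnt4, chr11:84525535-84525784 on the minus strand for Lhx1 and chr2:24475600-24475849 on the minus strand for Pax8.
Wnt4: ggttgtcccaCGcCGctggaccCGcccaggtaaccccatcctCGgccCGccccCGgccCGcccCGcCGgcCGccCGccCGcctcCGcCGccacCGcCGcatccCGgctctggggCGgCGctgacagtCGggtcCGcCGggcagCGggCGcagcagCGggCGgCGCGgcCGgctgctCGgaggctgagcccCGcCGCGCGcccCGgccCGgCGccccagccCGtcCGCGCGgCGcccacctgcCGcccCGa
Lhx1: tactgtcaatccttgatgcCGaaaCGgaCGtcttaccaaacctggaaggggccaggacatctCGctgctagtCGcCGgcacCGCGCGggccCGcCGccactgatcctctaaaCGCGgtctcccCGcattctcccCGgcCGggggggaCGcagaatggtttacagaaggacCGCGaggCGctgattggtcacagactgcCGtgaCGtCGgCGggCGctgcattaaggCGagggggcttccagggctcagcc
Pax8: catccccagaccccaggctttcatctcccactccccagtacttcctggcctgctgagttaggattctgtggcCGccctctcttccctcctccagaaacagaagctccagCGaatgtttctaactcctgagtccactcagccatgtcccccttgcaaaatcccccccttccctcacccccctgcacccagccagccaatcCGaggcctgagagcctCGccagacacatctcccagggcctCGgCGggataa
The Wnt4 stretch held 85.2% G and C bases and 44 CpGs, more CpGs than 99.5% of the 27025 gene promoters in the same table. Lhx1 had 64.8% and 26 CpGs, and Pax8 had 60.4% and 6 CpGs, with medians of 52% and 6 over all promoters. Both strands from 250 bases before to 50 after the start were searched for 4 short cores. None of the 3 genes held CTTTGA or CTTTGT (TCF/LEF core), which 31.3% of promoters held. None held TGATAC (core bound by Six2-type homeodomains, 5.55% of promoters), TAATTA (LIM homeodomain core, 5.31%) or GTCANGC (PAX core, 10.8%). These letters are only absent from this window.

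Pax8 was the most widely detected of the 3 genes, and Lhx1 and Wnt4 were found in fewer cells. Detection of a gene means an RPKM of 1 or more in that cell. RPKM is a level scaled to gene length and to the reads mapped in the cell. Pax8 was detected in 28 of 86 cells (32.6%, exact Clopper-Pearson 95% interval 22.8 to 43.5%). Lhx1 was detected in 13 cells (15.1%, 8.30 to 24.5%) and Wnt4 in 11 cells (12.8%, 6.56 to 21.7%). The intervals cover counting error only. The order of Lhx1 and Wnt4 did not hold at a higher limit: at an RPKM of 3, Wnt4 was found in 10 cells and Lhx1 in 9. At least 1 of the 3 genes was detected in 34 cells.

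Each gene's signal sat in few cells. Wnt4 had RPKM values of 76.4, 69.4, 48.6, 44.1, 31.2, 14.0, 10.3, 9.30, 7.68, 3.86 and 1.17 in cells 5, 43, 54, 40, 79, 56, 76, 44, 57, 10 and 69. It was listed at 0 in the other 75 cells, with no value between. Lhx1 had 45.3, 28.5, 24.0, 22.8, 12.0, 6.77, 5.49, 5.27, 3.60, 2.28, 2.22, 1.71 and 1.16 in cells 5, 3, 80, 40, 73, 25, 74, 76, 43, 18, 79, 20 and 39. The 5 highest cells held 85.4% of all Wnt4 signal, 81.3% of Lhx1 signal and 53.3% of Pax8 signal. Pax8 ranged from 1.29 to 373 RPKM in the cells that detected it, with a median of 40.8, against medians of 5.49 for Lhx1 and 14.0 for Wnt4. Cell 5 had the highest value of all 3 genes.

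**Figure D1:**
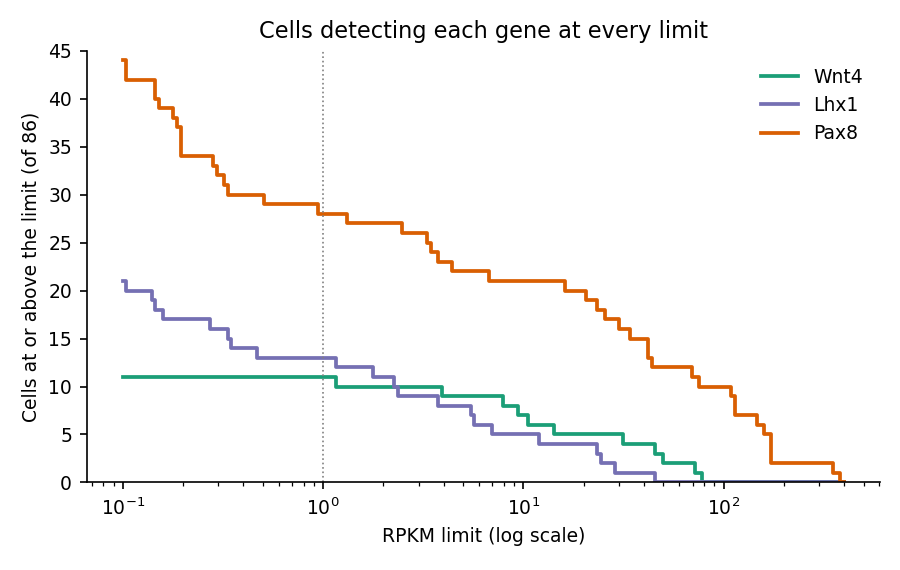
Number of the 86 cells (vertical axis) at or above each RPKM limit (horizontal axis, log scale) for Wnt4, Lhx1 and Pax8. The dotted line marks an RPKM of 1, at which 11, 13 and 28 cells are counted. The Wnt4 line is flat below it, because no cell has Wnt4 between 0 and 1.17 RPKM, while the Pax8 and Lhx1 lines go on rising.

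The depth of each cell was read from the steps of its low values, which are whole multiples of what 1 read is worth. Of 85519 values of up to 10 steps, 94.6% lay within 0.05 of a whole number. Scaled by transcript length, this gave an estimated 306000 to 6180000 reads per cell with a median of 2012000, and 8 cells lay under 1000000. In the median cell, 1 read was worth about 0.119 RPKM of Wnt4, 0.181 of Lhx1 and 0.197 of Pax8. The Lhx1 and Pax8 figures came from each gene's own steps. Wnt4 has no low values, so its figure came from its longest coding transcript and is less certain. For Lhx1, the length would have given 0.71 of the value from its own steps. Detected Wnt4 values rested on an estimated 10.9 to 542 reads, Lhx1 values on 6.6 to 210.4 and Pax8 values on 1 to 1875. The labels do not say whether reads were counted by strand. The Pax8 of cell 48, at 1.29 RPKM, was 1 read. A further 16 cells held Pax8 below an RPKM of 1, at an estimated 0.8 to 5 reads, and 9 cells held Lhx1 below it, at 0.5 to 4 reads. No cell held Wnt4 in that range. Reads without molecular identifiers are not independent molecules, so these are counts of reads.

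The positive cells overlapped but did not form a single nested series. All 5 cells with both Wnt4 and Lhx1 (cells 5, 40, 43, 76 and 79) also detected Pax8, and no cell had Wnt4 and Lhx1 without Pax8. Wnt4 with Pax8 but no Lhx1 was found in 4 cells (10, 56, 57 and 69), and Lhx1 with Pax8 but no Wnt4 in 4 cells (20, 25, 73 and 80). Wnt4 alone was found in 2 cells, Lhx1 alone in 4 cells and Pax8 alone in 15 cells. The remaining 52 cells had none. Thus 9 of 11 Wnt4 cells had Pax8 (81.8%, interval 48.2 to 97.7%), against 19 of 75 cells without Wnt4 (25.3%, 16.0 to 36.7%). Likewise 9 of 13 Lhx1 cells had Pax8 (69.2%, 38.6 to 90.9%), against 19 of 73 cells without Lhx1 (26.0%, 16.5 to 37.6%). Over the other genes detected in at least 5 cells, the median gene had 33.3% of its cells among those with Pax8.

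Wnt4 and Lhx1 were not contained in one another. Of the Wnt4 cells, 5 of 11 had Lhx1 (45.5%, 16.7 to 76.6%), against 8 of 75 cells without Wnt4 (10.7%, 4.72 to 19.9%). Of the Lhx1 cells, 5 of 13 had Wnt4 (38.5%, 13.9 to 68.4%). The median gene had 15.5% of its cells among those with Lhx1 and 13.6% among those with Wnt4. Read from the Pax8 side, 9 of 28 Pax8 cells had Wnt4 and 9 had Lhx1 (32.1%, 15.9 to 52.4% for either gene). These shares describe 1 moment in 1 pool, and the order in time of the genes was not measured.

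The cells with Wnt4 or Lhx1 but no Pax8 differed in their other genes. Cell 54 had Wnt4 at 48.6 RPKM, Six2 at 61.7 and 2 reads of Pax8. Cell 44, the deepest cell with an estimated 6180000 reads, had Wnt4 at 9.30 RPKM and no read of Pax8. Of the 4 cells with Lhx1 alone, cells 3, 18 and 74 were cells with high Mal2. Cell 39 had Lhx1 at 1.16 RPKM, an estimated 6.6 reads, with Six2 at 34.5 and Cited1 at 22.6.

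**Figure D2:**
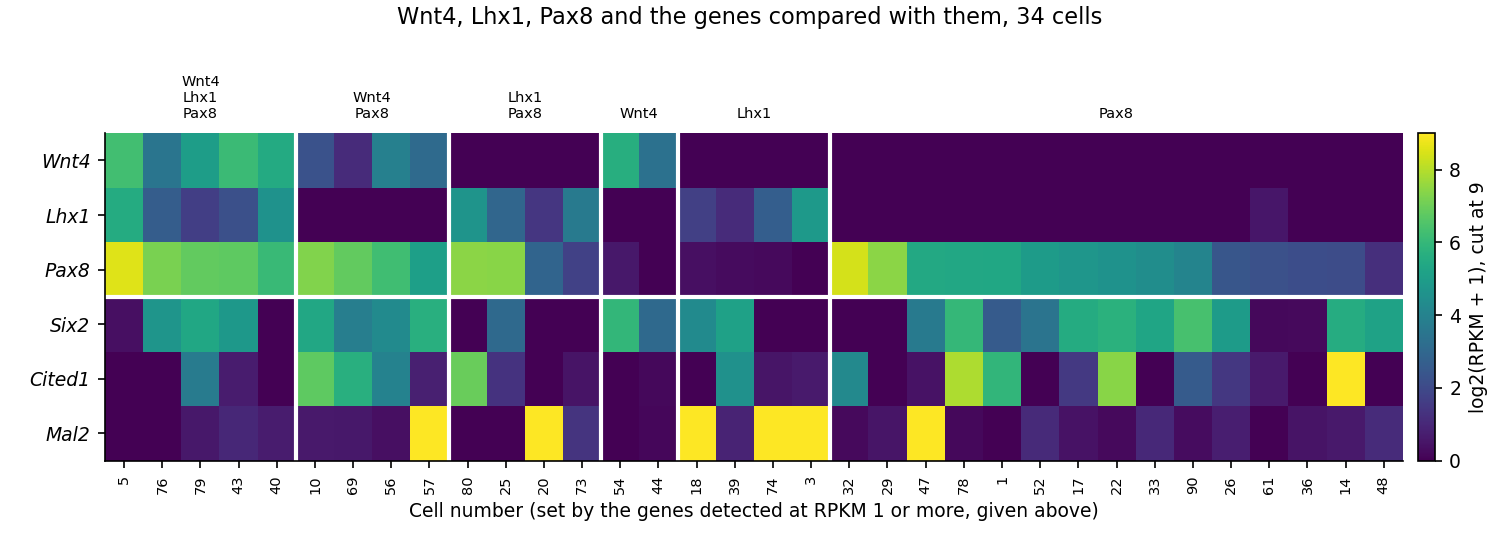
Levels of Wnt4, Lhx1, Pax8, Six2, Cited1 and Mal2 (rows) in the 34 cells that detect at least 1 of Wnt4, Lhx1 and Pax8 (columns, by cell number), as log2(RPKM + 1) with the colour scale cut at 9. Cells are grouped by which of the 3 genes they detect and ordered by Pax8 within a group. Pax8 is present in all 5 cells with both Wnt4 and Lhx1, and 3 of the 4 cells with Lhx1 alone are bright for Mal2.

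Mal2 set apart 7 cells, at RPKM values between 1219 and 2699. In 53 other cells it was present at no more than 3.41 RPKM, with a median of 3 reads, and these were not counted as Mal2 cells. The Mal2 cells detected 16 to 21 of 22 other bud genes, against 0 to 9 in the remaining cells, so these cells carried bud markers beyond Mal2. Lhx1 was detected in 4 of these 7 cells (57.1%, 18.4 to 90.1%), against 9 of 79 other cells (11.4%, 5.34 to 20.5%). Pax8 was detected in 3 of 7 (42.9%, 9.90 to 81.6%), against 25 of 79 (31.6%, 21.6 to 43.1%). Wnt4 was detected in 1 of 7 (14.3%, 0.361 to 57.9%), against 10 of 79 (12.7%, 6.24 to 22.0%).

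Lhx1 in the Mal2 cells was found largely without Pax8 and Wnt4. The 4 cells had Lhx1 at 28.5, 5.49, 2.28 and 1.71 RPKM, and Pax8 in the same cells was listed at 0 in the first, was at 0.179 and 0.287 in the next ones and at 6.53 in the last. The other Pax8 values of Mal2 cells were 42.4 in cell 47 and 32.8 in cell 57. Cell 57, the only Mal2 cell with Wnt4 (7.68 RPKM), also had Six2 at 50.4 RPKM with Mal2 at 1734. Six2 was detected in 3 of the 7 Mal2 cells (42.9%, 9.90 to 81.6%), also at 18.6 RPKM in cell 18 and at 12.1 in cell 47. Of 23 progenitor genes, cells 18, 47 and 57 detected 12, 13 and 9. Progenitor genes were not limited to these 3 cells: cell 53, with Six2 at 0.449 RPKM, detected 13 and had Pax2 at 12.1 RPKM. The other Mal2 cells, 3, 20 and 74, detected 2, 8 and 3. No doublet caller was run, and the part of mixed captures in the Mal2 cells was not tested.

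Without the Mal2 cells, the overlap with Pax8 covered nearly all Lhx1 cells. Of the 9 Lhx1 cells left, 8 had Pax8 (88.9%, 51.8 to 99.7%), against 17 of 70 cells without Lhx1 (24.3%, 14.8 to 36.0%). Of the 10 Wnt4 cells left, 8 had Pax8 (80.0%, 44.4 to 97.5%), against 17 of 69 cells without Wnt4 (24.6%, 15.1 to 36.5%). Among these 79 cells, Wnt4 and Lhx1 were found mostly in cells with high Pax8. Wnt4 or Lhx1 was detected in 8 of the 10 cells with Pax8 at 100 RPKM or more, in 2 of 9 cells between 10 and 100, and in 1 of 6 cells between 1 and 10. In these bins, from high to low Pax8, Wnt4 was in 6, 2 and 0 cells and Lhx1 in 6, 1 and 1. Pax8 had a median of 112 RPKM in the 8 cells that also had Wnt4 (67.9 to 373), against 23.3 in the 17 that did not (1.29 to 344). The ranges overlapped: cells 32 and 29 had Pax8 at 344 and 171 RPKM, with Wnt4 and Lhx1 both listed at 0.

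**Figure D3:**
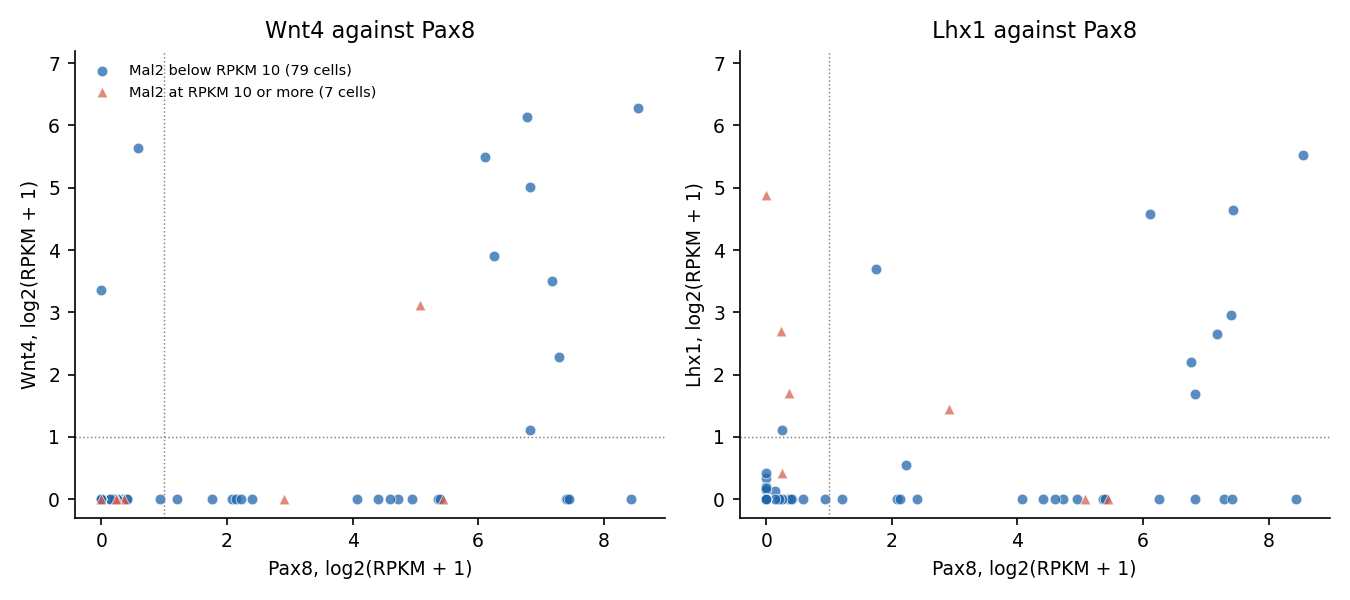
Wnt4 (left) and Lhx1 (right) against Pax8 in 86 cells, as log2(RPKM + 1), with 79 cells of low Mal2 as circles and 7 Mal2 cells as triangles. Dotted lines mark an RPKM of 1, which is 1 on this scale. Of the Wnt4 and the Lhx1 cells, 9 each lie right of the vertical line, and 3 of the 4 Lhx1 cells without Pax8 are Mal2 cells.

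Six2 was detected in 49 of all 86 cells (57.0%). Of the 34 cells with at least 1 of the 3 genes, 23 had Six2, 15 had Cited1 and 9 had neither. Six2 was detected in 9 of 11 Wnt4 cells (81.8%, 48.2 to 97.7%), against 40 of 75 cells without Wnt4 (53.3%, 41.4 to 65.0%). For Pax8 the counts were 19 of 28 (67.9%, 47.6 to 84.1%), against 30 of 58 (51.7%, 38.2 to 65.0%). For Lhx1 they were 6 of 13 (46.2%, 19.2 to 74.9%), against 43 of 73 (58.9%, 46.8 to 70.3%). The median gene had 58.2% of its cells among those with Six2, and the intervals of all 3 genes reached this share.

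The Six2 level in these cells was within the range of the others. Six2 had a median of 27.1 RPKM in the 9 cells with both Wnt4 and Six2 (7.45 to 61.7), against 33.0 in the 40 Six2 cells without Wnt4 (1.50 to 88.9). At the highest Lhx1 levels Six2 was missing. The 5 cells with Lhx1 at 10 RPKM or more (cells 5, 3, 80, 40 and 73) had Six2 at 0.281, 0, 0, 0 and 0 RPKM. Only the first of these values is above 0, and 1 of the 5 cells is a Mal2 cell.

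Cited1 was detected in 4 of 11 Wnt4 cells (36.4%, 10.9 to 69.2%), against 31 of 75 cells without Wnt4 (41.3%, 30.1 to 53.3%). The count was 4 of 13 for Lhx1 (30.8%, 9.09 to 61.4%), against 31 of 73 (42.5%, 31.0 to 54.6%). It was 14 of 28 for Pax8 (50.0%, 30.6 to 69.4%), against 21 of 58 (36.2%, 24.0 to 49.9%). Cited1 is short, so 1 read was worth a median of 0.451 RPKM. An RPKM of 1 therefore stands for fewer reads of Cited1 than of the other genes compared here. Cell 79, with Wnt4, Lhx1 and Pax8, had Cited1 at 12.5 and Six2 at 40.0 RPKM. Cell 80, with Lhx1 at 24.0 and Pax8 at 173, had Cited1 at 123 and no read of Six2.

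Split by Six2 and Cited1, the 79 cells without high Mal2 gave 4 classes. In 17 cells with Six2 and no Cited1, Wnt4 was detected in 4, Lhx1 in 2 and Pax8 in 5. In 29 cells with both, Wnt4 was detected in 4, Lhx1 in 3 and Pax8 in 12. In 6 cells with Cited1 and no Six2, Wnt4 was detected in 0, which allows a share of up to 45.9%, Lhx1 in 1 and Pax8 in 2. In 27 cells with neither, Wnt4 was detected in 2, Lhx1 in 3 and Pax8 in 6. The share with Wnt4 was 23.5% (6.81 to 49.9%) with Six2 and no Cited1, against 13.8% (3.89 to 31.7%) with both, and these intervals overlap widely.

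**Figure D4:**
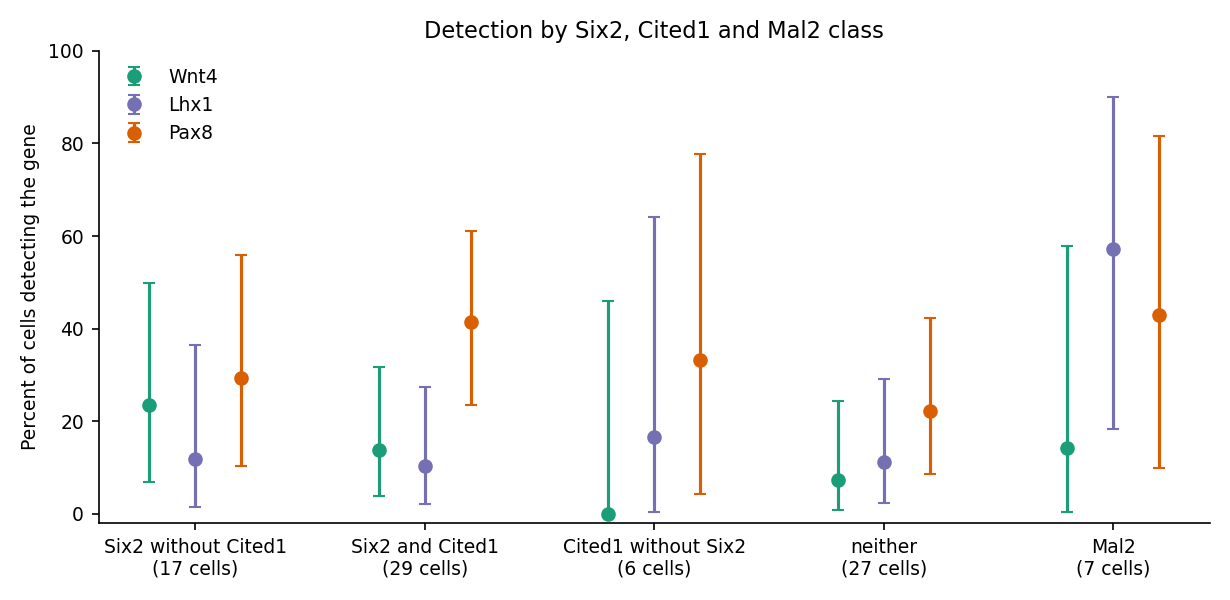
Percent of cells detecting Wnt4, Lhx1 and Pax8 (points) in 4 classes of the 79 cells without high Mal2 and in the 7 Mal2 cells, with exact 95% intervals (bars, counting error only). Every interval is wide and those of the first 4 classes overlap; the highest Lhx1 share is 57.1%, in the Mal2 cells.

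The authors present their second table as one of induced against uninduced progenitors, with a column that compares cells of Six2 only with cells of Six2 and Cited1. It covers 35 of the 86 cells, all with Six2, and 450 genes. Which cells they put in each class is not used here. None of the 3 genes is among them, nor is any of the other genes of the induction list used below. By the first table, 17 of these 35 cells had at least 1 of the 3 genes, with Wnt4 in 8, Lhx1 in 4 and Pax8 in 14, and 2 were Mal2 cells.

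To see what else the positive cells expressed, the 79 cells without high Mal2 were put in 3 classes. The Wnt4/Lhx1 class held 14 cells with Wnt4 or Lhx1, the Pax8-alone class held 14 cells with Pax8 and neither of them, and the class with none held 51 cells. Pax8 had a median of 110 RPKM in the Wnt4/Lhx1 class (0 to 373) and 21.7 in the Pax8-alone class (1.29 to 344). Wnt4 was listed at 0 in all 14 Pax8-alone cells, where 3 reads would be worth a median of 0.347 RPKM and at most 2.34. The classes had medians of 6709.5, 5932 and 6095 detected genes and of 1829000, 2064000 and 2038000 estimated reads. The part of the higher gene number in the first class was not tested.

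Of the listed genes of early nephron formation, 16 of 29 were higher in the Wnt4/Lhx1 class than in the Pax8-alone class. Ratios are log2 of (mean RPKM + 1) over (mean RPKM + 1), a scale that understates the change of low genes, and a gene was counted at 1 or more in size. The 29 are those whose mean reached an RPKM of 1 in one class or the other. Of them 2 were lower, and the median ratio was 1.16. Over all 11086 genes, 13.8% were higher and 12.5% were lower, with a median of 0.03. Dll1, Osr2, Cdh6, Clec18a, Lef1, Pax2, Emx2 and Papss2 passed this filter only through the Wnt4/Lhx1 class. They could not be lower, and all of them are among the 16 counted as higher. Axin2 passed only through the Pax8-alone class and could not be higher. With no filter on the mean, 16 of 31 listed genes were higher and 2 lower, with a median of 1.06. The list was chosen with earlier results of these data known, so these counts are a description. Without cell 5 alone, 12 of 27 listed genes were higher and 2 lower, and the median was 0.85, against 0.02 over all genes. By the difference of mean log2(RPKM + 1), 12 of 29 were higher and 1 was lower, with a median of 0.87. By that measure 936 of all 11086 genes were higher and 421 lower, with a median of 0.10.

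Of the Notch genes of the list, Jag1, Dll1, Hey1 and Heyl were counted as higher, and Hes1, Notch1 and Notch2 were not. Jag1, a Notch ligand of the renal vesicle, was detected in 12 of 14 Wnt4/Lhx1 cells and in 9 of 14 Pax8-alone cells, with means of 60.0 ± 85.7 and 21.2 ± 31.3 RPKM (SD, n = 14 cells each) and a ratio of 1.46, or 0.84 without cell 5. Dll1, another Notch ligand, was detected in 5 and in 1 of 14 cells, with means of 12.6 ± 35.0 and 0.339 ± 1.22 RPKM and a ratio of 3.34, or 1.71 without cell 5. Hey1, a Notch target, was detected in 9 and in 6 of 14 cells, with means of 52.3 ± 69.0 and 15.7 ± 21.9 RPKM. Heyl, a related target, was detected in 8 and in 4 of 14 cells, with a ratio of 1.94. The receptor Notch2 was detected in all cells of both classes, with a ratio of 0.11, and the target Hes1 had a ratio of -0.24.

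Other listed genes ranged widely in how many positive cells held them. Osr2, an odd-skipped zinc finger factor, was detected in 5 of 14 Wnt4/Lhx1 cells and 1 of 14 Pax8-alone cells, with a ratio of 3.55, or 2.75 without cell 5, and Cdh6, a cadherin of early tubules, in 5 and 0 of 14. Clec18a, a C-type lectin protein, was detected in 7 and 1 of 14 cells, with means of 15.3 ± 30.3 and 0.895 ± 3.35 RPKM and a ratio of 3.10, or 2.30 without cell 5. Bmp2, a secreted ligand, was detected in 7 and 4 of 14 cells, with a ratio of 1.85. Ccnd1, cyclin D1, was detected in 12 and 14 of 14 cells, with means of 169 ± 199.6 and 44.2 ± 43.5 RPKM. Pax2, the relative of Pax8, was low, with means of 6.11 ± 14.8 and 0.614 ± 0.678 RPKM; cell 73 at 56.5 RPKM holds most of the first. Papss2 was listed at 0 in all Pax8-alone cells, and no ratio is given for it. The list's median was 1.11 without Papss2.

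The 2 lower genes of the list act in Wnt signalling. Tcf7, a TCF/LEF factor, was detected in 4 of 14 Wnt4/Lhx1 cells and 5 of 14 Pax8-alone cells, with means of 1.01 ± 1.83 and 15.0 ± 31.9 RPKM. Axin2, a feedback inhibitor, was detected in 1 and 2 of 14 cells, with a median of 0 in both classes. By the difference of mean log2(RPKM + 1), Axin2 was at -0.45 and was not counted, while Tcf7 was at -1.17. Lef1, the relative of Tcf7, was higher, with detection in 7 and 2 of 14 cells and means of 3.42 ± 5.40 and 0.490 ± 1.33 RPKM. By the difference of mean log2(RPKM + 1), Lef1 was at 0.98 and was not counted. Of 22 counted genes of the Wnt9b and Wnt4 pathway list, which shares Tcf7, Axin2, Lef1 and Sfrp2 with the induction list, 5 were higher and 4 lower, with a median of -0.17. Of its receptors, Fzd7 had means of 11.1 ± 11.7 and 3.12 ± 3.85 RPKM, and Ror2 had 1.23 ± 4.51 and 7.27 ± 19.1 RPKM. Of 8 counted cofactors and relatives of LIM factors, none was higher or lower. Ldb1, which bridges LIM factors, was detected in 9 and 12 of 14 cells, with means of 16.8 ± 19.8 and 23.3 ± 19.7 RPKM.

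Few progenitor genes were counted as higher or lower between these classes. Of 22 counted genes of the progenitor list, 0 were higher and 2 lower, with a median of -0.18. Over all 11086 genes, 13.8% were higher and 12.5% lower, and the list counts by this ratio below stand beside the same shares. Osr1, a zinc finger factor of early kidney mesenchyme, had means of 7.21 ± 11.6 RPKM in the Wnt4/Lhx1 class and 26.9 ± 31.9 in the Pax8-alone class. Cited1 had 23.9 ± 41.4 and 74.3 ± 154 RPKM. Six2 was detected in 10 of 14 cells of each class, with means of 19.8 ± 19.3 and 29.2 ± 27.1 RPKM. Of 19 stroma genes 2 were higher and 3 lower, and their summed level ranged from 129 to 1584 RPKM in the Wnt4/Lhx1 class and from 318 to 1566 in the Pax8-alone class. Foxd1, which defines stroma, was detected in 8 of 14 and 7 of 14 cells. Of 14 counted bud genes 5 were higher and 2 lower, with sums of 23.0 to 781 and 34.0 to 799 RPKM. Tfap2a, Tfap2b and Rab25 were at 0 in both classes. Without cell 5, 1 of 10 counted bud genes was higher and 3 were lower. Of 5 counted genes of mural cells, which wrap vessels, 0 were higher and 3 lower, with a median of -1.17. By the difference of mean log2(RPKM + 1), 0 of the 5 were higher or lower and the median was 0.08. Of 5 partners of Pax genes 1 was higher, Pax2, and 1 lower, Gata3. Only 1 endothelial gene, Egfl7, and 2 immune or blood genes, Cd68 and Alas2, were counted; Egfl7 and Cd68 were higher and Alas2 lower.

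**Figure D5:**
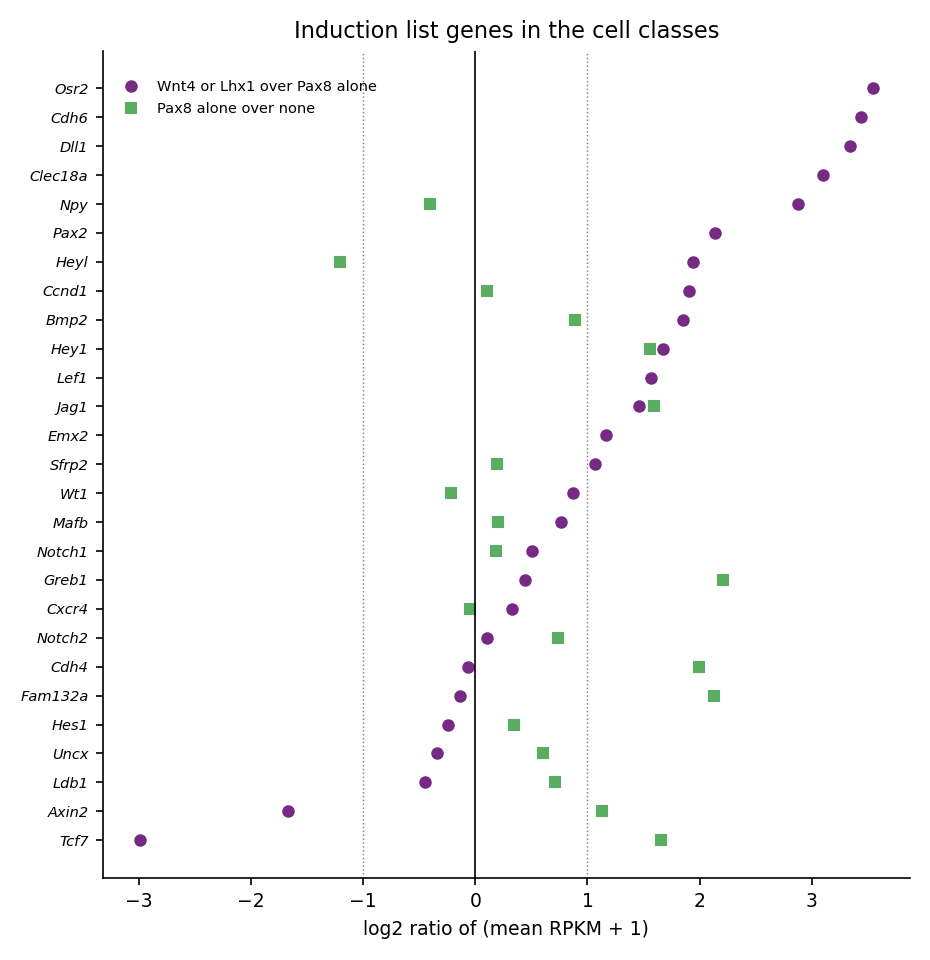
Log2 ratio of (mean RPKM + 1) for genes of the induction list that pass the filter, for the Wnt4/Lhx1 class over the Pax8-alone class (circles) and for the Pax8-alone class over cells with none (squares). Dotted lines mark the ratios of 1 and -1 at which a gene is counted, Papss2 is left out because it is listed at 0 in a class, and 1 other gene of the list is not shown. Jag1 and Hey1 lie above 1 in both comparisons, while Osr2, Cdh6, Dll1 and Clec18a appear only as circles because they do not pass the filter in the second.

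Pax8-alone cells differed from cells with none in a smaller set of induction genes and in stroma genes. Of 20 counted induction genes, 7 were higher and 1 lower, with a median ratio of 0.66. With no filter on the mean, 31 genes of the list had the same counts and a median of 0.19. Over all 11429 genes, 6.96% were higher and 16% were lower, with a median of -0.09. Jag1 was detected in 9 of 14 Pax8-alone cells and 19 of 51 cells with none, with means of 21.2 ± 31.3 and 6.36 ± 17.4 RPKM. Hey1 was detected in 6 of 14 and 13 of 51 cells, with a ratio of 1.55. Cdh4, a cadherin, was detected in 8 of 14 and 6 of 51 cells, with means of 8.77 ± 13.4 and 1.46 ± 4.60 RPKM. Greb1 was detected in 5 of 14 and 3 of 51 cells, and Fam132a, a secreted C1q-like protein, in 8 of 14 and 20 of 51 cells. Tcf7 (ratio 1.65) and Axin2 (1.13) were also higher, and Heyl was the lower gene (-1.21). In the first comparison these genes were counted on the opposite side. By the difference of mean log2(RPKM + 1), they were at 0.95, 0.28 and -0.22 here and were not counted. Ccnd1, with a ratio of 0.11, and Sfrp2, with 0.19, were near equal in these classes.

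Of 22 counted progenitor genes, 1 was higher and 0 lower in Pax8-alone cells, with a median of 0.61. Over all genes 6.96% were higher and 16% lower, and the list counts below stand beside the same shares. By the difference of mean log2(RPKM + 1), 6 progenitor genes were higher and 0 lower, with a median of 0.70. By that measure 602 of all 11429 genes were higher and 437 lower, with a median of 0.02. Six2 was detected in 10 of 14 Pax8-alone cells and 26 of 51 cells with none. Of 19 stroma genes, 0 were higher and 10 lower, with a median of -1.07. Pdgfra, a growth factor receptor of mesenchyme, was detected in 3 of 14 and 34 of 51 cells, and Col3a1, a fibrillar collagen, in 7 of 14 and 37 of 51. Foxd1 was detected in 7 of 14 and 41 of 51 cells, with medians of 0.909 and 8.29 RPKM. The summed stroma level ranged from 318 to 1566 RPKM in Pax8-alone cells and from 244 to 2231 in cells with none. Of 7 mural genes 0 were higher and 4 lower in Pax8-alone cells. Of 11 counted bud genes 4 were higher and 1 lower, with summed levels of 34.0 to 799 RPKM in Pax8-alone cells and 0.375 to 381 in cells with none. Of 21 Wnt pathway genes 3 were higher and 3 lower, of 8 LIM cofactors 1 was higher and 1 lower, and of 4 Pax partners 0 were higher or lower. Emcn, an endothelial gene, was lower, and Egfl7 and Alas2 had ratios of -0.97 and -0.27. The class with none thus holds many cells with stroma genes, and the part of this mixture in the ratios was not tested.

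By the naming rule, 8 genes with the highest and 8 with the lowest ratio were taken in each comparison, among genes whose higher class had a mean of 10 RPKM or more and detection in 50% or more of its cells. In the first comparison the highest were Pigu, Sgms2, Clu, Zfp346, Clec18a, Pigv, Rbpms and Igfbp2. Sgms2, a sphingomyelin synthase, was detected in 9 and 2 of 14 cells, and Igfbp2, which binds insulin-like growth factors, in 9 and 1 of 14. Pigu, a subunit of the enzyme that attaches GPI anchors, was detected in 8 of 14 Wnt4/Lhx1 cells, 1 of 14 Pax8-alone cells and 30 of 51 cells with none, so it was among the lowest of the second comparison as well. The lowest of the first were Ubxn11, Chic2, Ypel3, 4930420K17Rik, Scara3, Fam63a, Gtf2e1 and 1500031L02Rik. In the second, Wfdc2, a secreted protease inhibitor of epithelia, was detected in 10 of 14 and 18 of 51 cells, with means of 89.3 ± 182 and 14.3 ± 37.3 RPKM. Crabp1, which binds retinoic acid, was among the lowest, with means of 35.6 ± 47.1 and 365 ± 487 RPKM.

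The genes whose levels over the 86 cells were most like each member were ranked by Pearson r of log2(RPKM + 1). The cells share a pool and differ in depth, and r is given as a description. The 3 genes were among each other's closest in part: r was 0.51 for Wnt4 and Pax8, 0.43 for Wnt4 and Lhx1, and 0.41 for Lhx1 and Pax8. Without the Mal2 cells, these were 0.51, 0.54 and 0.54 over 79 cells. Of 11901 genes, the median r was 0.03 with Wnt4, 0.01 with Lhx1 and 0.02 with Pax8. With Six2, r was 0.14 for Wnt4, -0.23 for Lhx1 and 0.13 for Pax8.

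Wnt4 was most like Clec18a (r = 0.67), followed by Tspan18, a tetraspanin, Osr2, Plekhg6, Hey1, Pax8, Pdgfa, a growth factor, and Snora15. Clec18a was detected in 8 cells, all of them with Pax8 and 6 of them with Wnt4. Pdgfa was detected in 10 of the 11 Wnt4 cells, among 31 cells in all. Pax8 was most like Jag1 (r = 0.61), Clec18a, Bmp2, Trim2, Fam176a, Gja1, Wnt4 and Ptma. Jag1 was detected in 23 of 28 Pax8 cells, among 47 in all. Gja1, the gap junction protein connexin 43, was detected in 85 cells and Ptma in all 86, so these follow by level and not by presence.

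Lhx1 was most like 1500016L03Rik (r = 0.71), followed by Dsp, the desmosome protein desmoplakin, Rab3ip, Jag1, Dll1, Wfdc2, Car2, a carbonic anhydrase, and Abcg5, a sterol transporter subunit. 1500016L03Rik was detected in 9 of 13 Lhx1 cells, among 17 in all, and Jag1 in all 13 Lhx1 cells. Of the 6 cells with Dsp 4 were Mal2 cells, and of the 5 with Car2 4 were Mal2 cells. Jag1 and Wfdc2 were each detected in all 7 Mal2 cells, Rab3ip in 6, 1500016L03Rik in 5 and Abcg5 in 3, while Dll1 was in none. Without the Mal2 cells, 1500016L03Rik, Rab3ip and Dll1 stayed among the 8.

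Cell 5 stood apart among the positive cells. It had Wnt4 at 76.4, Lhx1 at 45.3 and Pax8 at 373 RPKM, with Jag1 at 335, Dll1 at 132, Clec18a at 106, Osr2 at 87.6 and Ccnd1 at 691. It detected 25 of 31 induction genes other than the members, against 9 to 20 in the other Wnt4/Lhx1 cells, and 6 of 23 progenitor genes, against 7 to 20. Six2 was at 0.281 RPKM, which is 1 read, and Cited1 was listed at 0. Over the classes, the median number of induction genes per cell was 13.5 in the Wnt4/Lhx1 class (9 to 25), 11.5 in the Pax8-alone class (6 to 16) and 8 in cells with none (5 to 14). The Mal2 cells had a median of 17, so this count does not set nephron cells apart from bud cells.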

How the data were processed

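Per the labels' protocols, kidneys were pooled and dissociated with trypsin at 37 C, cells were captured on the Fluidigm C1, cDNA was made with the SMARTer kit, and Nextera XT libraries were sequenced on a HiSeq2500. The submitters' processing notes name TopHat 1.4.1, DESeq and the mm9 build, with no role given. The values are RPKM per gene and cell, deposited by the authors on the linear scale, and the first table lists genes that pass an RPKM of 3 in 3 or more cells. The column headers name 1 run for all cells, so no batch could be compared.

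The members and gene lists were chosen with earlier results of these data known. Detection was set at an RPKM of 1, and Mal2 cells at a Mal2 RPKM of 10. Shares carry exact Clopper-Pearson 95% intervals from scipy 1.17.1 under Python 3.11.15, with pandas 2.3.3 and numpy 2.4.6. Class ratios used a pseudocount of 1 and genes whose mean reached an RPKM of 1 in one class or the other. The members and Mal2 were left out of list counts. Of the listed genes, 1 is in the list counts but is not reported here by itself. Named genes were the 8 most like each member, the 8 highest and 8 lowest per comparison, and genes of the lists. Depth was recovered from the step sizes of low RPKM values, a choice made after seeing the data. Absolute read numbers are approximate, because the length scale had an interquartile range of 33.5% of its median. The recovery of depth was checked on simulated reads, and the class ratios on real values shuffled over cells with known folds added. The shares, list counts and rankings had no such check. No test between cells was made, because all cells are 1 sample.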

Additional observations from a re-analysis of the deposited data

How the results depend on the processing

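Over the main results, 162 alternative values were labelled the same as the reported ones and 19 were labelled moved. A share was labelled the same when it lay within the interval of the reported share, which is wide for few cells. The label therefore does not mean that a share stayed close. At any RPKM above 0, the share of Wnt4 cells with Cited1 went from 36.4% to 63.6% and was labelled the same. So was the share of Lhx1 cells with Wnt4, which went from 38.5% to 22.7%. At any RPKM above 0, Lhx1 was found in 25.6% of cells, Pax8 in 51.2%, and 63.6% of Lhx1 cells had Cited1. At an RPKM of at least 10, Lhx1 was found in 5.81% of cells, 14.3% of Pax8 cells had Lhx1, 0% of 7 Wnt4 cells were Mal2 cells and 0% of 5 Lhx1 cells had Six2. With the difference of mean log2(RPKM + 1) in place of the ratio of means, 936 genes were higher and 421 lower in the Wnt4/Lhx1 class, against 1532 and 1388, and 437 were lower in Pax8-alone cells, against 1831. Of the 8 genes most like Wnt4, 4 remained by Spearman's rho, 5 without the Mal2 cells and 5 without cell 5. For Lhx1, 1 remained by Spearman's rho, 3 without the Mal2 cells, 5 with a pseudocount of 0.1 and 5 without cell 5. For Pax8, 1 remained by Spearman's rho and 5 without the Mal2 cells. The cause of these changes was not tested. Leaving out cell 5, the read minimum and the depth minimum were chosen after seeing the data. No paired analysis was possible because all cells form 1 group with no replicate numbers. At the median depth, an RPKM of 1 stands for about 8.43 reads of Wnt4, taken from transcript length, but 2.22 of Cited1. Low values of short genes are therefore the least certain.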
